A study of Rattus norvegicus with 6 samples.

Results

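Chemokines and their receptors were followed in fat from beside the pancreas of lean and obese rats. The members were all probe sets annotated with exactly 1 gene symbol that names a CC, CXC, CX3C or XC chemokine, a receptor for these, or an atypical chemokine receptor (Ackr). The rule gave 58 of the 31099 probe sets on the array and 45 of 14217 genes: 29 ligands, 12 signalling receptors and 4 atypical receptors. All rats were of the outbred Wistar strain. The lean group was 3 rats on standard chow (rats 14, 18 and 19), and the obese group was 3 rats fed an energy-rich cafeteria diet for 30 days (rats 29, 32 and 42). Each rat gave 1 Affymetrix array, and values are log2 expression per probe set as the authors normalized them. Every array except that of obese 42 is marked in the labels as a re-run of a sample deposited before. Brightness depends on the probe set, so levels are compared between rats and never between genes.

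Chemokines are small secreted proteins that direct the movement of leukocytes. They act on receptors with a G protein partner on the target cell, many ligands share a receptor, and most receptors bind several ligands. Atypical receptors bind chemokines without G protein signalling and take them up or carry them across cells. In fat, adipocytes, stromal cells, mesothelial cells and resident macrophages make chemokines, and Ccl2 with its receptor Ccr2 is known for drawing monocytes into the fat of obese animals.

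Setting obese against lean rats asks how the diet groups differ in the signals that recruit leukocytes to this depot. More ligands had lower than higher means on the obese arrays, among them the eotaxin Ccl11 (4.57-fold), the T cell attractant Ccl5 (2.22-fold) and the B cell attractant Cxcl13 (3.54-fold, a log2 difference of -1.82 that was -0.82 without obese 32). The receptor Cxcr3 lay lower by a factor of 1.87, together with its ligands Cxcl10 and Cxcl11. Its ligand Cxcl9 lay at a log2 difference of -0.31, and there the groups overlapped. All 4 atypical receptors with an Ackr symbol had higher means on the obese arrays, although Ackr1 was lower in 5 of 13 alternatives and Ackr4 in 1 of 13. No member passed limma's test at an adjusted p under 0.05, so every difference given here is a value and not a call. The test called 0 of 45 members, against 0.00703% of all genes, which is 1 gene.

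Of the 45 members, 27 were lower on the obese arrays (60.0%), against 46.3% of all 14217 genes. At an unadjusted p under 0.05 in the limma fit 11 members were lower (24.4%), against 6.18% of all genes, and 0 were higher, against 7.23% of all genes. The lean and obese values did not overlap for 10 lower members (22.2%; 8.18% of all genes) and for 5 higher members (11.1%; 12.2% of all genes). Ligands had 20 of 29 lower and a median difference of -0.34, signalling receptors 7 of 12 and a median of -0.051, and atypical receptors 0 of 4 and a median of 0.20. The median over all genes was 0.016. CC and CXC ligands had medians of -0.26 and -0.34. Members share cells, gene clusters and receptors, so their counts are not counts of independent events.

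The number of lower members at an unadjusted p under 0.05 dropped to 5 without lean 18 (11.1%), and the share of all genes was then 4.15%. Those 5 were Ccl11, Ccl19, Ccl5, Cxcl11 and Cxcr3, and each kept such a p in all of the gene-level alternatives that tested it. Without lean 14 the number was 8 (17.8%, against 3.86% of all genes), and without obese 42 it was 12 (26.7%, against 7.59% of all genes). The share over all genes thus moved with the array left out as well. The count of higher members went from 0 to 3 without obese 42 (Ackr2, Ccr4 and Cxcl2; 6.67%, against 8.11% of all genes). Ligands had 21 of 29 lower without lean 14, 18 without obese 42 and 16 without both.

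**Figure D1:**
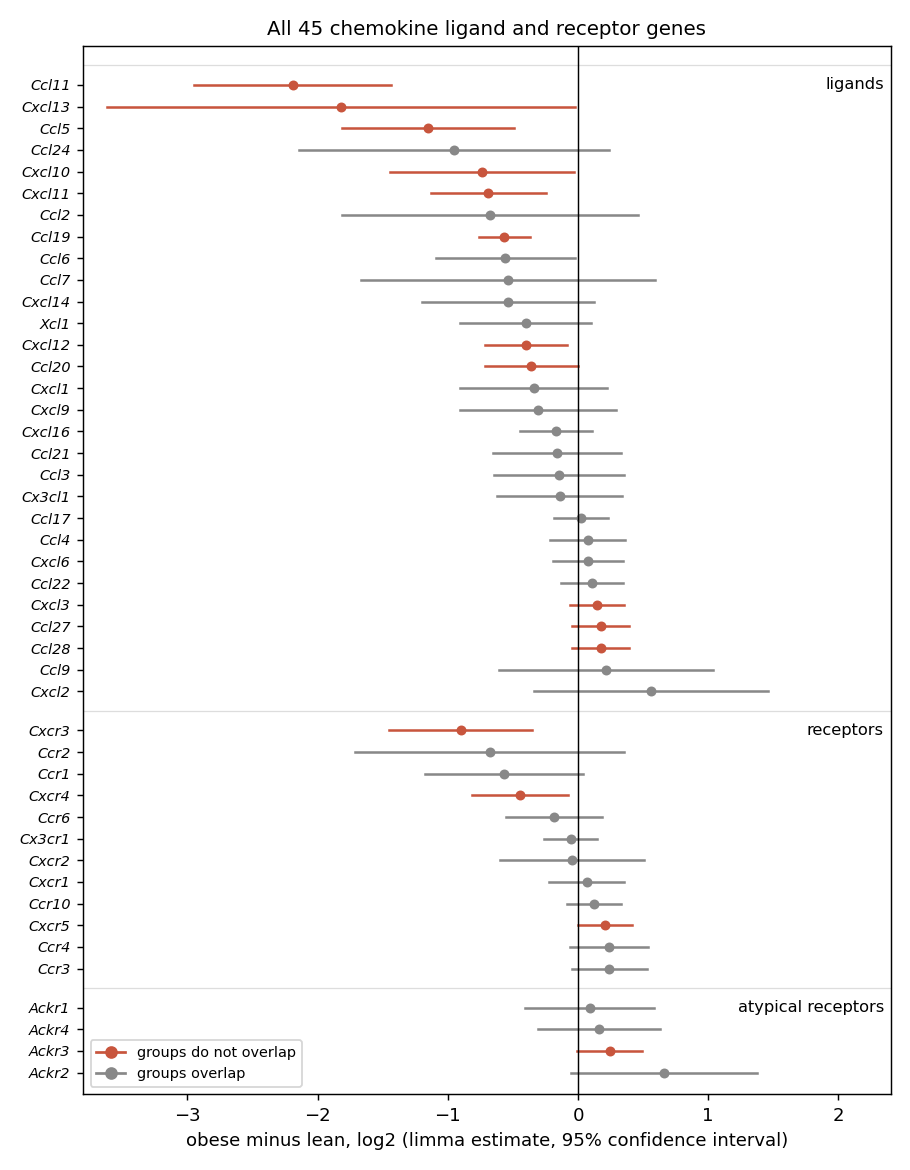
Differences between obese and lean rats for all 45 genes, as log2 (obese minus lean) with 95% confidence intervals from limma, sorted within ligands, receptors and atypical receptors. Coloured points are the 15 genes whose 3 lean and 3 obese values do not overlap, and Ccl11 lies farthest from 0 at -2.19.

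The tissue carried the markers its label names: adiponectin (Adipoq) read 12.42 to 12.56 in lean and 12.63 to 12.83 in obese rats. Lean 14 also carried pancreatic acinar transcripts, with trypsinogen (Prss1) at 10.62 against 4.30 to 5.07 on the other arrays. Means of 5 of 6 acinar genes were lower in obese rats, each with overlap. From the mean of the 6 arrays, the 6 genes together lay at 3.84 on lean 14 but at -1.17 and -0.97 on lean 18 and 19. The obese arrays lay between these, from -0.66 to -0.42. The acinar gene Cpa1 was higher by 0.54 and read 8.14 on obese 32, against 8.66 on lean 14. The 3' probe sets of 3 RNA controls exceeded the 5' ones by a mean of 1.28 on obese 42, against 0.79 to 1.10 elsewhere. Of these, Gapdh and beta-actin were highest on obese 42, while hexokinase was lowest there, at 1.04 against 1.05 to 1.33. The arrays' medians were 5.63 to 5.68 and their lower quartiles 4.41 to 4.49. The deposited values hold no detection call. Ccl28, Ccr4, Cxcl6 and Cxcr1 lay under the lower quartile on all 6 arrays, and 18 members lay above the median on all 6. For genes near the floor a difference is compressed.

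Ccl11 (eotaxin), which attracts eosinophils through Ccr3, had the largest difference of any member. It read 7.88, 8.68 and 7.41 on lean 14, 18 and 19, and 6.05, 5.96 and 5.38 on obese 29, 32 and 42. Each obese rat lay more than 1 log2 unit below each lean rat, and the groups did not overlap. The mean went from 7.99 ± 0.64 (SD, n = 3) to 5.80 ± 0.36 (SD, n = 3), a difference of -2.19 with a standard error (SE) of 0.32 and an interval of -2.95 to -1.43. Its adjusted p was 0.0956, with a range of 0.0699 to 0.305 over the alternatives. Below an adjusted p of 0.10 there were 2 members lower, Ccl11 and Ccl19, against 0.0985% of all genes. Without any one of lean 14, lean 18, lean 19, obese 29 or obese 32 that count was 0. Without obese 42 it was 1 (Ccl19), and Ccl11 then had an adjusted p of 0.104 in limma. The count was also 0 with the probe sets of a gene averaged.

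Other ligands of Ccr3 were measured beside Ccl11. Ccl24 (eotaxin 2) read 9.66, 9.07 and 8.26 on the lean and 8.91, 8.18 and 7.04 on the obese arrays. The groups overlapped, and the difference of -0.95 had an interval of -2.14 to 0.24. Ccr3 itself, the receptor of eosinophils, read 4.19, 4.11 and 3.95 on the lean and 4.19, 4.24 and 4.54 on the obese arrays. All but the value on obese 42 lay under the arrays' lower quartiles, and the difference was 0.24 (SE 0.12), or 0.13 without obese 42. In whole tissue, fewer cells of a type and less RNA per cell cannot be told apart.

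Ccl5 (RANTES), which attracts T cells and monocytes through Ccr1, Ccr3 and other receptors, read 7.499, 7.99 and 7.36 on the lean arrays. On the obese arrays it read 7.08, 6.08 and 6.24. Obese 29 lay nearest to the lean rats, and the groups did not overlap. The difference was -1.15 (SE 0.28), with an interval of -1.81 to -0.49 and an adjusted p of 0.212. T and NK cells are known makers of Ccl5, and 11 of 12 of their markers were also lower, at a median of -0.62. Their part in the Ccl5 value was not tested.

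**Figure D2:**
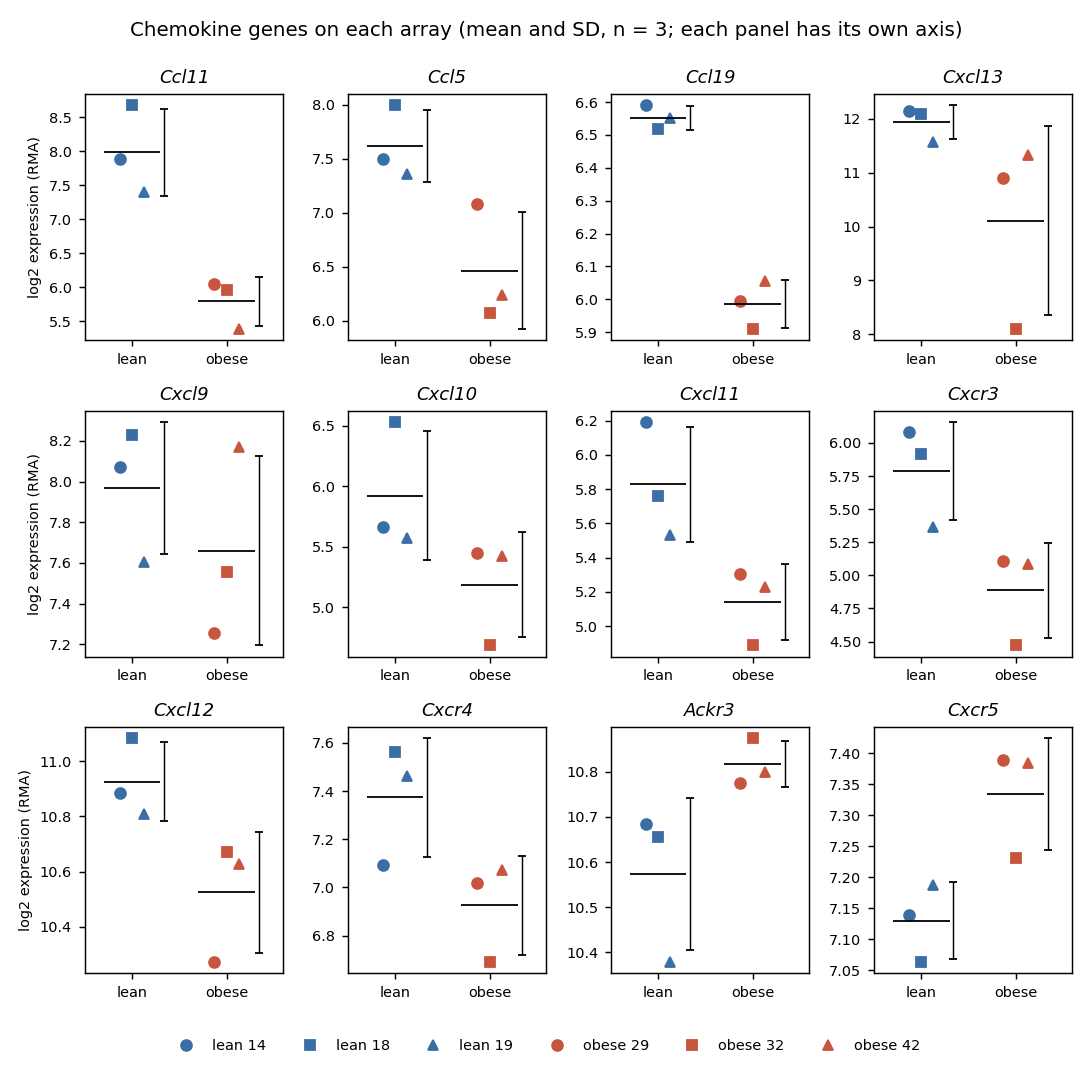
Log2 expression of 12 chemokine genes on each array, lean in blue and obese in red, with the mean (line) and SD (bar) of the 3 rats of a group; each panel has its own axis, which does not start at 0. Ccl11, Ccl5, Ccl19, Cxcl10, Cxcl11, Cxcr3, Cxcl12, Cxcr4 and Cxcl13 are lower on every obese array than on any lean array, Ackr3 and Cxcr5 are higher, and Cxcl9 overlaps.

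Ccl19 and Ccl21 are chemokines of lymphoid tissue. Ccl19, which draws dendritic cells and naive T cells through Ccr7, read 6.59, 6.52 and 6.55 on the lean and 5.996, 5.91 and 6.06 on the obese arrays. The SDs within the groups were 0.036 and 0.073 (n = 3 each), and the groups did not overlap. The difference was -0.57 (SE 0.083), a 1.48-fold difference, with an adjusted p of 0.0956 and a range of 0.0713 to 0.357 over the alternatives. Ccl21, the other Ccr7 ligand, read 9.35, 9.50 and 9.24 on the lean and 9.55, 9.33 and 8.71 on the obese arrays. There the groups overlapped, the difference was -0.16, and its interval of -0.66 to 0.33 includes the difference of Ccl19. Ccr7 was not analysed here.

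Cxcl13, which draws B cells through Cxcr5, read 12.15, 12.08 and 11.58 on the lean and 10.90, 8.10 and 11.33 on the obese arrays. Obese 32 lay far below the other 2 obese rats, and the groups did not overlap. The difference was -1.82 (SE 0.77), with an interval of -3.62 to -0.024 and an adjusted p of 0.369. Without obese 32 it was -0.82. Obese 32 also had the lowest level of the 6 B cell markers, -0.67 from the mean of the 6 arrays. It was equally the lowest array for the markers of T and NK cells (-0.61), mast cells (-0.64), mesothelial cells (-0.63) and dendritic cells (-0.40). The part of any of these cells in the Cxcl13 value was not tested. Cxcr5 read 7.14, 7.06 and 7.19 on the lean and 7.39, 7.23 and 7.38 on the obese arrays, higher by 0.20 (SE 0.089) without overlap. Its dimmer probe set lay at -0.13, so the probe sets of Cxcr5 disagree in direction.

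Cxcr3, the receptor of activated T and NK cells, read 6.08, 5.91 and 5.37 on the lean and 5.11, 4.47 and 5.08 on the obese arrays. The groups did not overlap, and the difference was -0.90 (SE 0.23), with an interval of -1.45 to -0.35 and an adjusted p of 0.232. Its ligands are Cxcl9, Cxcl10 and Cxcl11, which interferon gamma induces in many cells. Cxcl10 read 5.67, 6.53 and 5.57 on the lean and 5.45, 4.69 and 5.42 on the obese arrays, a difference of -0.74 (SE 0.30) that was -0.43 without lean 18 and -0.49 without obese 32. Cxcl11 read 6.19, 5.76 and 5.53 on the lean and 5.31, 4.89 and 5.23 on the obese arrays, a difference of -0.69 (SE 0.19). Both were lowest on obese 32 and did not overlap between the groups. Cxcr3, Cxcl10 and Cxcl11 were dim, under the arrays' medians on 4, 5 and 4 of the 6 arrays. Cxcl9 read 8.07, 8.23 and 7.60 on the lean and 7.26, 7.56 and 8.17 on the obese arrays. It was high on obese 42, the groups overlapped, and the difference was -0.31 with an interval of -0.90 to 0.29. The dimmer probe set of Cxcl9 lay at -0.52 and also overlapped. The difference of Cxcl9 depended on single arrays: it was -0.56 without obese 42, then with an unadjusted p of 0.0302 in limma, -0.49 without lean 19, -0.18 without lean 18 and -0.10 without obese 29.

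The genes of these 3 ligands lie side by side in the reference gene table, with 0 other coding genes between them. Their start regions are shown because the ligands share inducers, together with that of Ccl19, which had the smallest p of the members. Whether the 3 ligands differ from each other was not tested, and the interval of Cxcl9 includes the differences of Cxcl10 and Cxcl11. Each line gives the 250 bases before the annotated start from RefSeq (GRCr8), 5′ to 3′ on the gene's strand. Capitals mark matches to an interferon response element (ISRE, GAAANNGAAA), a gamma-activated site (GAS, TTCNNNGAA) or the NF-kappaB consensus (GGGRNNYYCC), searched on both strands. Here N is any base, R is A or G, and Y is C or T. The windows are chr14:16006916-16007165, chr14:15988816-15989065 and chr14:15973478-15973727 on the plus strand and chr5:61761165-61761414 on the minus strand.
Cxcl9: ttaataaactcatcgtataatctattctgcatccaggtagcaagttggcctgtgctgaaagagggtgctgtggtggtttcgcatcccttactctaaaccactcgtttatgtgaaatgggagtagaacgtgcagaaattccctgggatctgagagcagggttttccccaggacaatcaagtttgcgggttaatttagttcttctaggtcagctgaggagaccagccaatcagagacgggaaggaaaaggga
Cxcl10: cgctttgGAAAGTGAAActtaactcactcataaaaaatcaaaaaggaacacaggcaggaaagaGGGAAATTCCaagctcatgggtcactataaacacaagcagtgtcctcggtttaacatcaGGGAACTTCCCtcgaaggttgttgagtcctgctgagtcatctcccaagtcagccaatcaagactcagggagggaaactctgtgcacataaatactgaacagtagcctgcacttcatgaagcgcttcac
Cxcl11: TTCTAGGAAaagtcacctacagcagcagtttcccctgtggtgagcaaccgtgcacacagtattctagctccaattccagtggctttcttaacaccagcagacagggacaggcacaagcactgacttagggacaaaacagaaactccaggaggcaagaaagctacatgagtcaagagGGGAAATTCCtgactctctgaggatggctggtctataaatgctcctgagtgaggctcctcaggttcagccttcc
Ccl19: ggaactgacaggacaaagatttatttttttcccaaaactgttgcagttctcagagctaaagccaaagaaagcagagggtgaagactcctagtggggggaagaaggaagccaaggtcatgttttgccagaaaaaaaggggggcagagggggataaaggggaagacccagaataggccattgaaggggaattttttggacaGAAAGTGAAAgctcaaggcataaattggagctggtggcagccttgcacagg

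Cxcl10 holds 1 ISRE match, from 243 to 234 bases before the start, 1 NF-kappaB match from 187 to 178, and a further pair of NF-kappaB matches that overlap each other, from 128 to 119 and from 127 to 118. Cxcl11 holds 1 GAS match from 250 to 242 and 1 NF-kappaB match from 74 to 65. Ccl19 holds 1 ISRE match from 51 to 42, with the same letters as that of Cxcl10. The window of Cxcl9 holds no match to these letters. Promoter windows were given for 35 of the 45 members; Ackr1, Ccl2, Ccl3, Ccl4, Ccl5, Ccl11, Ccr4, Ccr10, Cxcl3 and Cxcr5 had none. Of the 35, an ISRE match stood in 2, a GAS match in 4 and an NF-kappaB match in 9, against 3.41%, 7.67% and 6.33% of all 33469 windows. A match is a description of the letters and not a shown binding site.

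Cxcl12, made by stromal cells, holds and attracts leukocytes through Cxcr4, and Ackr3 clears it. Cxcl12 read 10.89, 11.08 and 10.81 on the lean and 10.27, 10.67 and 10.63 on the obese arrays. The groups did not overlap, and the difference was -0.40 (SE 0.13, adjusted p = 0.305). The other 2 probe sets of Cxcl12 lay at -0.82, without overlap, and at -0.59, with overlap. Cxcr4 read 7.09, 7.56 and 7.46 on the lean and 7.02, 6.69 and 7.07 on the obese arrays, with lean 14 just above obese 42. Its difference was -0.45 (SE 0.16, adjusted p = 0.315). The other 2 probe sets of Cxcr4 lay at -0.69 (SE 0.098) and -0.77 (SE 0.24), both without overlap, and the first of them had an adjusted p of 0.146 among 31042 probe sets. All 3 probe sets of each gene were thus lower on the obese arrays. Ackr3 went the other way, at 10.68, 10.66 and 10.38 on the lean and 10.78, 10.87 and 10.80 on the obese arrays. The groups did not overlap, and Ackr3 was higher by 0.24 (SE 0.11, adjusted p = 0.380), or by 0.15 without lean 19.

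The monocyte attractants varied widely between rats of a group. Ccl2 (MCP-1) read 9.33, 9.02 and 7.90 on the lean and 8.17, 8.86 and 7.21 on the obese arrays. Its receptor Ccr2 read 6.68, 5.51 and 5.18 on the lean and 5.22, 5.70 and 4.42 on the obese arrays. Ccl7 (MCP-3), which shares that receptor, read 7.26, 7.23 and 6.06 on the lean and 6.32, 7.18 and 5.42 on the obese arrays. In all 3 genes lean 14 was the highest and obese 42 the lowest array, and the groups overlapped. The level of 11 macrophage markers was likewise highest on lean 14 (0.51 from the mean of the 6 arrays) and lowest on obese 42 (-0.91), and its part in these values was not tested. The differences were -0.68 for Ccl2, -0.68 for Ccr2 and -0.54 for Ccl7. The interval for Ccl2 ran from -1.81 to 0.46, which includes 0.

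Ccl6, a CC chemokine of macrophages, read 11.83, 11.58 and 11.29 on the lean and 11.39, 11.08 and 10.55 on the obese arrays. Obese 29 lay above lean 19, and the difference was -0.56 (SE 0.23, adjusted p = 0.362). It was -0.33 without obese 42 and -0.20 without lean 14 and obese 42. Ccr1, which binds Ccl3, Ccl5, Ccl6, Ccl7 and Ccl9, read 8.90, 8.99 and 8.11 on the lean and 8.12, 8.40 and 7.76 on the obese arrays, a difference of -0.57 (SE 0.26) with overlap. Ccl3 (MIP-1 alpha) lay at -0.15, Ccl4 (MIP-1 beta) at 0.074 and Ccl9 at 0.22, all with overlap. Their intervals ran from -0.64 to 0.35, from -0.22 to 0.36 and from -0.60 to 1.04.

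The attractants of neutrophils were dim and had no common direction. Cxcl2 read 4.27, 4.18 and 3.90 on the lean and 4.43, 5.63 and 3.97 on the obese arrays. It was high on obese 32 alone, and the difference was 0.56 (SE 0.38). Cxcl1 lay at -0.34 and Cxcl6 at 0.077, with overlap. Cxcl3 read 5.03, 5.003 and 4.97 on the lean and 5.23, 5.17 and 5.04 on the obese arrays, higher by 0.14 (SE 0.087) without overlap, and all 5 of its probe sets were higher. Cxcl1, Cxcl2 and Cxcl3 are close copies of each other, and probe sets of this family may take up signal from more than 1 of them. The receptors Cxcr1 and Cxcr2 lay at 0.066 and -0.044. Neutrophil markers S100a8, S100a9, Camp and Csf3r also overlapped between the groups, and 2 of these 4 lay under the lower quartile on all 6 arrays.

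Ccl20, which acts on Ccr6 of Th17 and B cells, read 5.03, 4.59 and 4.49 on the lean and 4.23, 4.36 and 4.45 on the obese arrays. It was lower by a difference of -0.36 (SE 0.15) without overlap, which was -0.19 without lean 14. All 3 obese values of Ccl20 lay under their arrays' lower quartiles. Ccr6 lay at -0.19 with overlap, and at -0.056 without obese 32. Ccl27 (skin-homing) and Ccl28 (mucosal) share the receptor Ccr10 and lay at 0.17 each. Without lean 18 Ccl27 lay at 0.11, and without lean 19 Ccl28 lay at 0.11. Ccl27 read 5.29, 5.13 and 5.32 on the lean and 5.33, 5.46 and 5.47 on the obese arrays, and Ccl28 read 3.93, 3.93 and 3.72 against 4.04, 3.99 and 4.07. Neither pair of groups overlapped, and Ccr10 lay at 0.13 with overlap. Ccl17 and Ccl22, which attract Th2 and regulatory T cells, lay at 0.021 and 0.11, and their receptor Ccr4 at 0.24, all with overlap. The dimmer probe set of Ccl22 lay at -0.14 without overlap, so the probe sets of Ccl22 disagree in direction.

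Cx3cl1 (fractalkine) and its receptor Cx3cr1 of monocytes lay at -0.14 and -0.057. The interval of Cx3cr1, from -0.26 to 0.14, was among the narrowest of the members. Cxcl14 read 8.15, 8.45 and 8.30 on the lean and 7.71, 7.17 and 8.40 on the obese arrays, a difference of -0.54 with obese 42 among the lean values. Cxcl16, which attracts Cxcr6-bearing T cells, lay at -0.17 and Xcl1, made by killer cells, at -0.40, both with overlap. Among the atypical receptors, Ackr2, a scavenger of inflammatory CC chemokines, read 5.63, 5.65 and 6.01 on the lean and 6.11, 7.18 and 5.996 on the obese arrays. Obese 32 stood well above the rest, and the difference was 0.66 (SE 0.30). Its dimmer probe set read 5.84, 5.69 and 5.51 on the lean and 5.74, 6.77 and 5.15 on the obese arrays. That probe set lay at 0.21 with overlap, and only obese 32 stood above the lean values. Ackr1, which carries chemokines across endothelium, lay at 0.089, and Ackr4, which clears Ccl19, Ccl21 and Ccl25, at 0.16, both with overlap.

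Ligands were matched with their textbook receptors, which gave 30 pairs with both genes measured. In 13 pairs both means were lower on the obese arrays, in 6 both were higher, in 7 the ligand was lower and the receptor higher, and in 4 the ligand was higher and the receptor lower. These counts share genes, as Ccr3 stands in 5 pairs and Ccr1 in 5. The receptors of the 6 pairs with both higher were Ccr3, Ccr4, Ccr10 and Cxcr1. Each of these lay under the arrays' lower quartiles on at least 5 of the 6 arrays, so these pairs rest on genes near the floor. Another 8 pairs had a partner that was not analysed here, among them those of Ccr7, Cxcr6 and Xcr1. In all pairs of Cxcr3, Ccr2, Cxcr4, Ccr6 and Cx3cr1 both partners were lower. Ccl11 with Ccr3 and Cxcl13 with Cxcr5 lay farthest apart, but Ccr3 was near the floor and the probe sets of Cxcr5 disagree in direction.

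**Figure D3:**
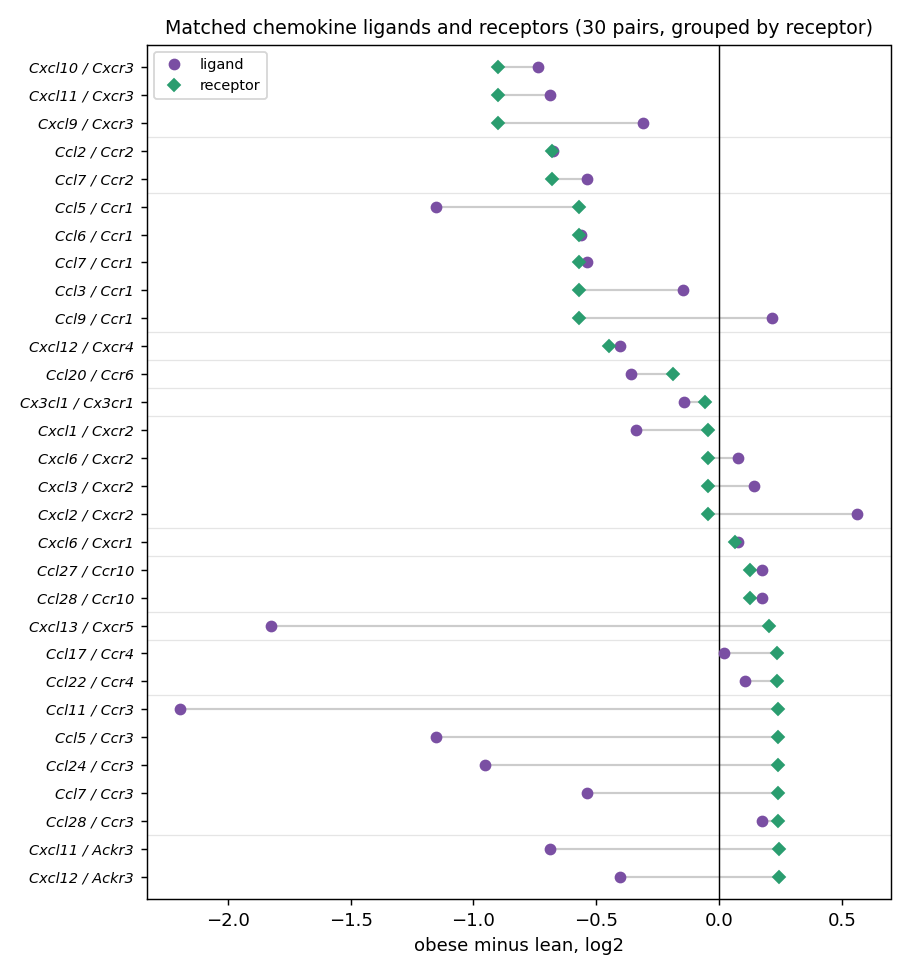
Log2 difference (obese minus lean) of the ligand (circle) and the receptor (diamond) of 30 matched pairs, grouped by receptor. Both symbols lie below 0 in 13 pairs, and the widest gap is that of Ccl11 at -2.19 and Ccr3 at 0.24. Ccr3 lay under the arrays' lower quartiles on 5 of the 6 arrays.

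Many CC chemokine genes lie in clusters. Ccl2, Ccl7 and Ccl11 follow each other in the reference gene table with 0 other coding genes between them, and lay at -0.68, -0.54 and -2.19. Of these, Ccl11 had groups without overlap and the other two overlapped. Ccl5, Ccl9, Ccl6, Ccl3 and Ccl4 also follow each other, and lay at -1.15, 0.22, -0.56, -0.15 and 0.074. Whether neighbours differ in size was not tested, and the intervals of Ccl2 and Ccl7 reach that of Ccl11.

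Markers of several leukocytes, like most ligands, had lower means in obese rats. The 29 ligands together lay at 0.30, 0.32 and -0.044 from the mean of the 6 arrays on lean 14, 18 and 19, and at -0.052, -0.22 and -0.32 on obese 29, 32 and 42. Lean 19 and obese 29 were almost level. All 11 macrophage markers had lower means in obese rats, at a median of -0.63, from 0.046 to 0.51 on the lean and from -0.91 to 0.15 on the obese arrays. Of 12 T and NK cell markers 11 were lower, with a median of -0.62, from -0.028 to 0.48 on the lean and from -0.61 to -0.0051 on the obese arrays, and so only just overlapping. The 6 B cell markers ran from -0.053 to 0.53 and from -0.67 to 0.27, and the 6 mast cell markers from -0.046 to 0.74 and from -0.64 to 0.12. All 6 of each were lower. The order of the arrays differed between lists: the ligands and macrophage markers were lowest on obese 42, and the T and NK cell, B cell and mast cell markers on obese 32. The part of these cells in the ligand values was not tested.

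Of 4 dendritic cell markers 3 were lower, with a median of -0.39. The 4 endothelial markers had a median of -0.062 and the 4 mesothelial markers one of -0.023, both with overlap for each gene. The 4 neutrophil markers had a median of 0.16. All 7 adipocyte markers had higher means in obese rats, at a median of 0.23, from -0.27 to -0.15 on the lean and from 0.025 to 0.37 on the obese arrays. The level of this list did not overlap between the groups, and neither did 4 of its 7 genes (57.1%, against 12.2% of all genes higher without overlap). No marker in any of these lists had an adjusted p under 0.05. Mpeg1 of macrophages (-0.91), Cd5 of T cells (-0.65), Fcmr of B cells (-0.80), Kit of mast cells (-0.66), Itgax of dendritic cells (-0.50) and Cidec of adipocytes (0.44) had the smallest p in their lists.

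**Figure D4:**
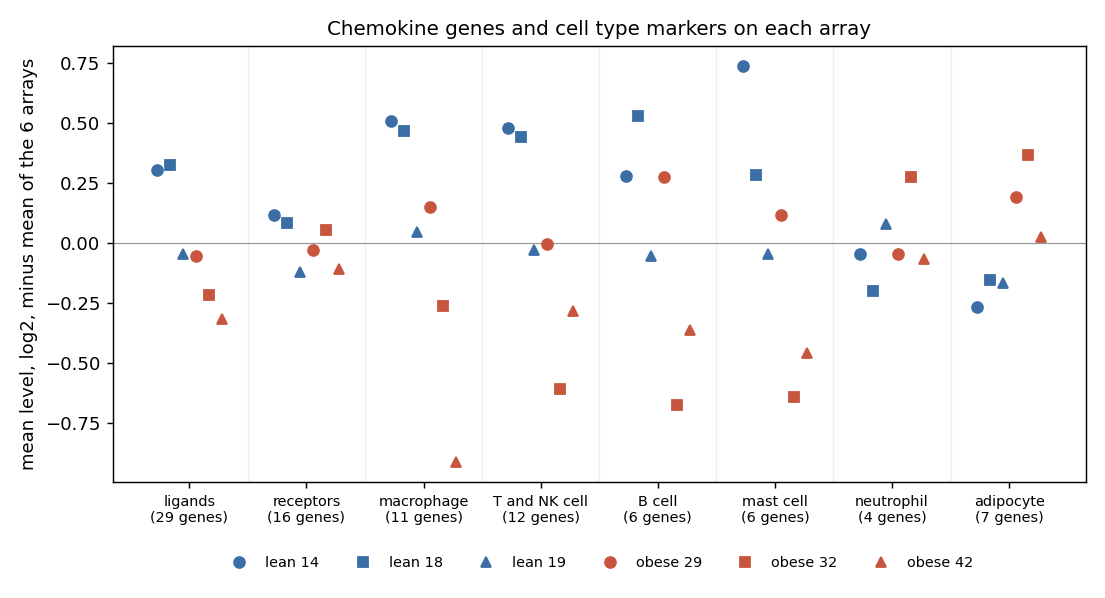
Mean log2 level of the chemokine ligands, of their receptors and of 6 marker lists on each array, minus the mean over the 6 arrays, with lean rats in blue and obese rats in red. The ligands run from -0.044 to 0.32 on the lean and from -0.32 to -0.052 on the obese arrays, while macrophage and B cell markers of obese 29 lie above those of lean 19.

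Genes that carry the chemokine signal inside the cell, together with leukocyte integrins, were read from a list of 40 entries. Of these entries 31 were measured. In obese rats 22 of 31 were lower, at a median of -0.20. At an unadjusted p under 0.05 there were 10 lower (32.3%, against 6.18% of all genes) and 1 higher (3.23%, against 7.23% of all genes), and 0 passed at an adjusted p under 0.05 in limma. Prkcb, a protein kinase C, read 8.51, 8.57 and 8.53 on the lean and 7.99, 7.55 and 7.496 on the obese arrays, a difference of -0.86 (SE 0.14, adjusted p = 0.109). Tiam1, an activator of Rac, lay at -0.53 (SE 0.090), Itgal, the alpha chain of the integrin LFA-1 that chemokines activate, at -1.33 (SE 0.27), and Rgs2, a brake on G protein signalling, at -0.55 (SE 0.13). These 4 were named for the smallest p of the list, and none of them overlapped between the groups. Of the 31 genes 11 were lower without overlap (35.5%, against 8.18% of all genes). Higher without overlap was 1 gene (3.23%, against 12.2% of all genes). Many genes of this list are leukocyte genes as well, and their share in the difference was not tested.

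A further 11 genes belong to the chemokine system or act beside it, under names that the rule does not take. The member counts leave them out. Cd74, the receptor for Mif and the invariant chain of MHC class II, lay at -0.50 (SE 0.0996) and Mif at -0.45 (SE 0.18), both without overlap. The platelet chemokine Pf4 lay at -0.34 with overlap and Ppbp was higher by 0.15 without overlap, just above the lower quartiles. Chemerin (Rarres2), an attractant made by adipocytes, read 12.21, 12.17 and 12.11 on the lean and 12.37, 12.30 and 12.26 on the obese arrays, higher by 0.15 (SE 0.082) without overlap, and its receptor Cmklr1 lay at -0.086. The protease Dpp4, which trims several chemokines, lay at -0.22 with overlap. Ccrl2 and Pitpnm3, also classed by some as atypical receptors, lay at -0.20 and -0.12, both with overlap. Of the 11 genes 7 were lower (63.6%, against 46.3% of all genes) and 4 were higher.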

How the data were processed

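Expression was measured in peripancreatic fat of 3 lean and 3 obese rats, 1 array each. The authors deposited log2 expression per probe set, produced with RMA in affy, per the submitters' processing notes. Software versions, the chip definition and the set of arrays normalized jointly were not given in the sources used here. Of the 31099 probe sets, 57 controls were left out, and 1 gene symbol was listed for 20826, several for 436 and none for 9780. Gene IDs of 20758 probe sets matched the reference gene table, and 0 symbols needed an update. The probe set with the highest mean stood for a gene; 8 members had several, which agreed in direction for 6 and differed for Ccl22 and Cxcr5.

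The test was limma 3.58.1 under R 4.3.3 (lmFit, eBayes, constant prior, two-sided, no covariate, no filter). Benjamini-Hochberg adjustment ran over all 14217 genes. Differences are obese minus lean and intervals cover 95%. Every array came from its own rat, so the tests see the spread between 3 rats a group. The fit was checked on simulated data. Python 3.11.15, pandas 2.3.3 and matplotlib 3.10.9 made the tables and plots. The members and lists were chosen with earlier results of these data known. Values on each array are given for up to 20 members whose groups do not overlap, for matched partners of those with an unadjusted p under 0.05, and for the 3 ligands and 3 receptors with the highest signal. The other members described with values on each array were chosen after their values were seen. Of each other list, up to 4 genes with the smallest p were named by the rule. S100a8 and its list, Adipoq, Prss1, Mif, Pf4, Ppbp, Rarres2, Cmklr1, Dpp4, Ccrl2 and Pitpnm3 include further ones chosen for their role. Cpa1 was named as the acinar gene that went the other way. The number of arrays limits the precision.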

Additional observations from a re-analysis of the deposited data

How the results depend on the processing

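No paired analysis was possible because the groups share no replicate number. With 1 choice changed at a time, 0 members and 0 chemokine signalling genes passed limma's test at an adjusted p under 0.05 in any setting, leaving out each array included; at 0.10 there were 2 members, also with median centring or array weights, 1 (Ccl11) with quantile normalization, the intensity trend or the level filter, 0 with probe sets averaged or each on its own or without both lean 14 and obese 42, and 0 to 1 with an array left out. Over all genes 1 passed at 0.05, 9 with array weights and 34 without obese 42. No member given by the naming rule reversed its direction in the gene-level settings. Members lower at an unadjusted p under 0.05 numbered 11, 6 when only genes whose mean exceeded the median of all gene means were tested (17 members; that median, 6.81, lies above the arrays' medians over probe sets), and 5 to 13 with an array left out. Higher members numbered 0, 1 with quantile normalization, with probe sets averaged per gene, with every probe set on its own or with an intensity trend and robust prior, 2 with median centring or with lean 14 and obese 42 both left out, 3 with array weights, and 0 to 3 with an array left out. The ligand median of -0.34 was -0.56 under that level filter, which tests fewer genes, and -0.12 without lean 14 and obese 42 together; the cause was not tested. The ligand count and the non-overlap count without those arrays were chosen after seeing the data, and non-overlap is commoner with fewer arrays: 13 lower members without both, against 21.1% of all genes. Of the members given by the naming rule, Ccl19, Cxcr3, Cxcl10, Cxcl11 and some dimmer ones fall under the level filter and have no value there.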
